A study of Mus musculus with 13 samples.

Results

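Schwann cell and glial genes are described here in mouse neuroblastoma, a tumour of the sympathetic nervous system, and in normal adrenal gland. The group holds 7 genes (Erbb3, Fabp7, S100b, Mbp, Pmp22, Cnp and Gfap), chosen by name among the 18193 genes measured. They were read by all 20 probe sets annotated to them, of which 8 belong to Mbp, 3 each to Cnp and Gfap, 2 each to Erbb3 and S100b, and 1 each to Fabp7 and Pmp22. A probe set is a group of short array probes whose brightness is summarised as 1 value, and its log2 expression can be compared between arrays but not with the level of another gene. RNA from 13 tissues was hybridised to Affymetrix mouse arrays. Tumours of animals with the genotype "MYCN AND mutated ALK" (called double transgenic below) gave 3 arrays, tumours with mutALK gave 3, tumours with MYCN gave 4 and normal adrenal glands gave 3. The mice were on a C57BL/6 background, the transgenes were expressed specifically in the neural crest, and tumours were taken once they could be felt. The promoter of the transgenes, the ALK mutation and the animals' ages are not given in the sources used here. The labels do not say that the arrays of a group came from separate animals, so p-values measure the spread between these arrays, which may be partly technical. Within their group, mutALK 2 and 3 share a number in their titles, and so do MYCN 2 and 3, so these pairs may not be independent. Calls that ended when that number entered the fit as a random block (estimated correlation 0.456) are named with their genes. The sample numbers of the double transgenic arrays form a block apart from those of all other arrays. The labels do not say whether they were processed separately, and such a difference could not be told apart from genotype.

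Schwann cells ensheath and myelinate peripheral nerve fibres, and satellite glia surround sympathetic neurons. Both descend, like the sympathetic neuroblasts themselves, from the neural crest, and immature Schwann cells along nerves also give rise to cells of the adrenal medulla. Erbb3 is the receptor through which the neuregulin Nrg1 on axons keeps Schwann cell precursors alive, while Fabp7 and S100b are soluble proteins of immature and of later glia. Mbp and Pmp22 are structural proteins of peripheral myelin, Cnp is an enzyme of non-compact myelin, and Gfap is the intermediate filament of astrocytes and of non-myelinating Schwann cells. In human neuroblastoma the amount of Schwann cell stroma is part of the histological classification.

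The tissue labels were checked on marker lists. The mean of 15 pan-neuronal genes lay between 10.49 and 11.91 in the 10 tumour arrays, and the mean of 11 adrenal cortex genes between 5.30 and 6.98 in tumours and between 11.56 and 12.93 in adrenal. Adrenal 2 stood apart from the other adrenal arrays, with a pan-neuronal mean of 9.82 against 6.72 and 5.96, a liver mean of 10.67 against 6.01 and 5.82, and a fat cell mean of 12.14 against 10.85 and 10.25. The liver list mean was also above 8 in double transgenic 1 (11.56), mutALK 1 (10.57), mutALK 3 (9.40) and MYCN 2 (8.48). Calls of members that ended or appeared without these 5 arrays together (the liver-high arrays), which leaves mutALK 2 as the only mutALK array, are given with each gene. The 12 measured oligodendrocyte genes averaged between 4.96 and 5.57 in every array, and the 13 astrocyte genes between 5.82 and 6.70 in tumours and between 7.38 and 7.99 in adrenal.

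**Figure D1:**
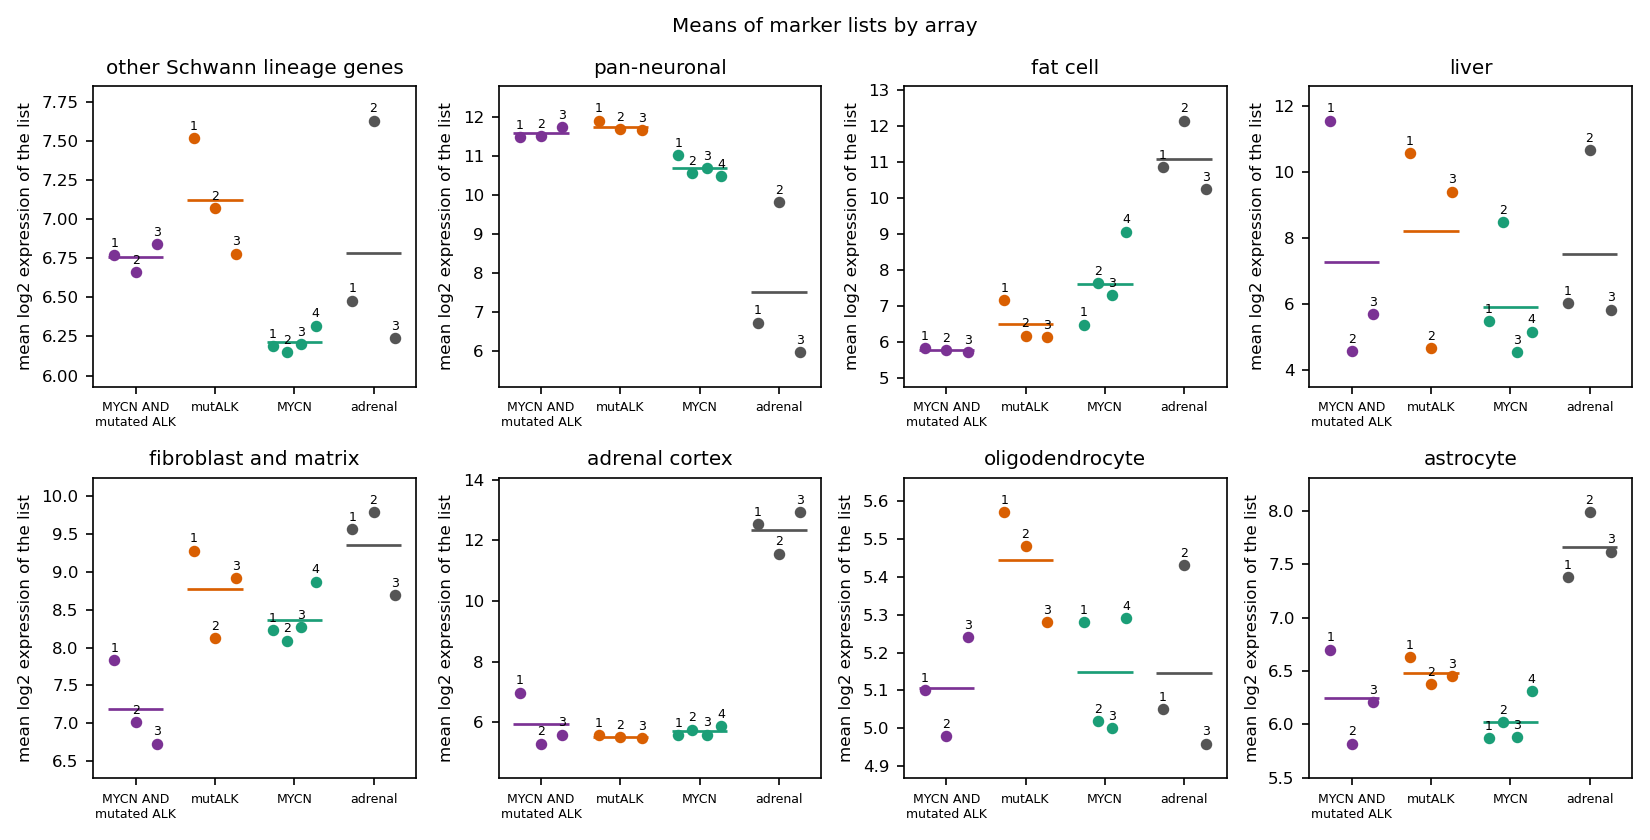
Mean log2 expression of 8 marker lists (vertical axes) in each array, by group on the horizontal axes; dots are arrays numbered by replicate and lines are group means. Adrenal 2 lies above adrenal 1 and 3 for the Schwann lineage, pan-neuronal, fat cell and liver lists, and 5 arrays have a liver mean above 8.

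Between tumours, MYCN arrays had the lowest Erbb3, Fabp7 and Cnp, mutALK arrays the lowest Mbp by its brightest probe set, and double transgenic arrays the lowest mean Pmp22. Each gene was represented by its brightest probe set, and a difference was called at an adjusted p under 0.05 in limma over all genes. In mutALK against MYCN tumours Cnp and Erbb3 were higher and Mbp was lower, which is 3 of 7 members where 30.8% of all genes were called (13.6% higher and 17.2% lower). In double transgenic against mutALK tumours Mbp was higher and Pmp22 lower, 2 of 7 against 14.4% of all genes (8.39% higher, 6.04% lower). In double transgenic against MYCN tumours 0 of 7 passed limma's test, against 12.8% of all genes (6.16% higher, 6.66% lower), although Erbb3, Fabp7 and Pmp22 had an unadjusted p under 0.05. The median log2 difference of the members was 1.07 for mutALK minus MYCN, -0.30 for double transgenic minus mutALK and 0.14 for double transgenic minus MYCN, where the medians of all genes were 0, -0.02 and -0.03.

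Against adrenal gland, 3 of 7 members were called in double transgenic tumours and 2 of 7 in mutALK tumours, where 48.6% of all genes (24.3% higher, 24.2% lower) and 42.2% (21.3% higher, 21% lower) were called. In MYCN tumours 6 of 7 members were called, against 50.2% of all genes (25.4% higher, 24.8% lower). MYCN tumours had lower Cnp, Pmp22, Erbb3 and S100b than adrenal and higher Mbp and Gfap by their brightest probe sets. Without adrenal 2, 3 of 7 were called. With 1 array left out, all genes called ran from 8379 to 9141, against 9128 over all arrays. The S100b call was lost in 13 and the Gfap call in 11 of 24 alternatives each. Most Mbp probe sets gave negative differences, which were not called. The median member difference was -1.38 in MYCN tumours, where it was 0.10 in double transgenic and -0.06 in mutALK tumours. The 3 adrenal comparisons share the same control arrays, and so do the comparisons with a tumour group in common.

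**Figure D2:**
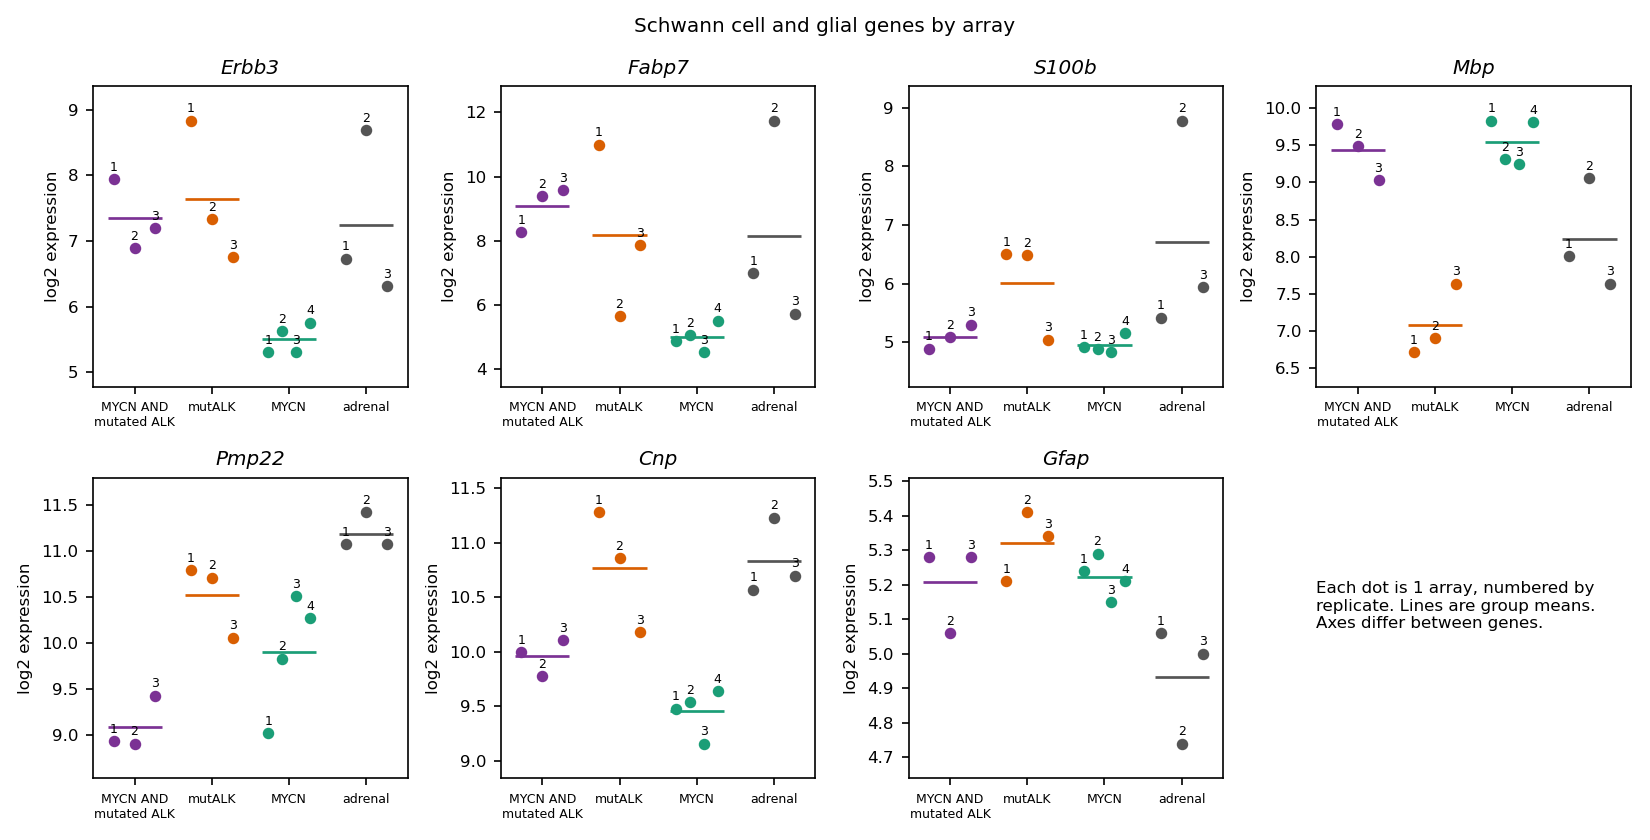
Log2 expression (vertical axes, which differ between genes) of the brightest probe set of each of the 7 genes by group; dots are arrays numbered by replicate and lines are group means. The 4 MYCN arrays lie below all double transgenic and mutALK arrays for Erbb3, Fabp7 and Cnp, and the 3 mutALK arrays lie below all other tumour arrays for Mbp. The share of all genes that separate groups in this way was not counted, here or where a lack of overlap is described in the text.

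Erbb3, the neuregulin receptor that needs Erbb2 as its kinase-active partner, had the lowest values in MYCN tumours. The gene lies on chromosome 10 at 128567523 to 128589635 in mouse assembly GRCm38.p6. Its log2 expression was 7.94, 6.89 and 7.20 in the double transgenic tumours. In mutALK tumours it was 8.83, 7.33 and 6.75. MYCN tumours read 5.31, 5.63, 5.31 and 5.76, and adrenal glands 6.73, 8.69 and 6.31. Every MYCN array lay below all 9 other arrays, whereas the other 3 groups overlapped. A low Erbb3 value in a bulk sample can come from fewer cells that express it or from less RNA per cell, and these cannot be told apart here.

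The difference was 2.13 ± 0.57 between mutALK and MYCN tumours (log2 ± SE, adjusted p = 0.0144), and it was 1.54 with an adjusted p of 0.0674 when mutALK 1 was left out. Between double transgenic and MYCN tumours it was 1.84 ± 0.57 with an adjusted p of 0.0581. This passed the threshold without adrenal 2 (adjusted p = 0.0137), without mutALK 1 (0.0344), without adrenal 3 (0.0478) and in a fit of the compared groups alone (0.00562), in each case at 1.84, and at 1.58 (0.0118) without the 5 liver-high arrays. MYCN tumours were also lower than adrenal, with a difference of -1.74 ± 0.57 (adjusted p = 0.0241), but without adrenal 2 the difference was -1.02 with an adjusted p of 0.107, and leaving out MYCN 1 or MYCN 3 also ended the call (-1.68 for each, adjusted p = 0.0524 and 0.053). Double transgenic and mutALK tumours differed by -0.30 ± 0.61 (95% interval -1.64 to 1.05), and by 0.30 without mutALK 1. The second Erbb3 probe set read 4.05 to 4.87 in every array, within the range of probe sets for olfactory receptor genes (5th to 95th percentile 3.05 to 5.37), and was called in no comparison. Erbb3 is also expressed in liver and epithelia. The 3 highest Erbb3 values, in mutALK 1, adrenal 2 and double transgenic 1, came from arrays with a liver mean above 8. Such a mean was also found in mutALK 3, which had the lowest mutALK value (6.75), and in MYCN 2 (5.63). The part of liver RNA in these values was not tested. In the arrays with a liver mean under 8 the values were 6.89 and 7.20 in double transgenic and 7.33 in mutALK tumours, against 5.31, 5.31 and 5.76 in MYCN tumours.

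Of the other ErbB receptors, ligands and regulators, 17 of 18 listed genes were measured. In mutALK against MYCN tumours 4 were higher, 1 lower and 12 not called, a share near the 30.8% called of all genes. The neuregulin Nrg3 was higher by 3.07 ± 0.42 (adjusted p = 0.000289), Nrg1, the axonal ligand, by 2.46 ± 0.40 (0.000907) and the EGF receptor ligand Tgfa by 1.59 ± 0.29 (0.00155). Nrg1 read 6.83, 7.30 and 7.74 in mutALK tumours, against 4.86, 4.40, 4.91 and 5.17 in MYCN tumours, with no overlap. In double transgenic against MYCN tumours 3 were higher, 1 lower and 13 not called, where 12.8% of all genes were called. They were Nrg3 (3.35 ± 0.42, adjusted p = 0.00106), Nrg1 (1.60 ± 0.40, 0.0245) and Tgfa (1.29 ± 0.29, 0.0142), and Pa2g4, a protein that binds ErbB3, was the lower one. The Nrg1 call ended without double transgenic 1 (1.43, adjusted p = 0.0781), double transgenic 3 (1.56, 0.0828), MYCN 2 (1.46, 0.0727) or MYCN 3 (1.63, 0.0533). The Tgfa call ended without double transgenic 1 (1.03, 0.0502) and when all its probe sets were averaged (0.35, 0.0915).

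Erbb2, the partner receptor, was below all adrenal values in every tumour. It read 5.17, 5.23 and 5.61 in double transgenic, 5.91, 5.53 and 5.61 in mutALK and 5.18 to 5.41 in MYCN tumours, against 6.02, 6.31 and 6.07 in adrenal. Its difference from adrenal was -0.80 ± 0.15 in double transgenic, -0.45 ± 0.15 in mutALK and -0.82 ± 0.14 in MYCN tumours (adjusted p = 0.000708, 0.0256 and 0.000317). The mutALK value lost its call without mutALK 2 (-0.38, adjusted p = 0.0935), mutALK 3 (-0.42, 0.0777) or adrenal 2 (-0.36, 0.0833), without the 5 liver-high arrays (-0.52, 0.0782) and with the title number as a block (-0.42, 0.0536). Between mutALK and MYCN tumours Erbb2 differed by 0.37 ± 0.14 (adjusted p = 0.0601). This passed in 7 of its alternatives, at 0.37 to 0.39 with adjusted p of 0.0237 to 0.0488, among them a repeated quantile normalization (0.0363), median centring (0.0488) and leaving out adrenal 2 (0.0455). The single call of the list between double transgenic and mutALK tumours was Errfi1, an inhibitor of ErbB kinases, at -1.16 ± 0.30 (adjusted p = 0.0293), and leaving out double transgenic 2 (-0.89, 0.116), double transgenic 3 (-1.0, 0.0824), mutALK 1 (-1.16, 0.0727) or mutALK 2 (-1.13, 0.0897) ended it, as did the title number as a block (-1.15, 0.0501). Against adrenal the list had 3 higher and 5 lower genes in double transgenic, 3 and 4 in mutALK, and 2 and 7 in MYCN tumours, of 17 each, where 48.6%, 42.2% and 50.2% of all genes were called. The largest were Nrg4 (-3.22, -2.88 and -2.66) and Tgfa (-2.30, -2.0 and -3.59) in all 3 tumour groups, with Nrg3 in double transgenic tumours (2.24), Nrg1 in mutALK tumours (2.30) and Pa2g4 in MYCN tumours (1.61).

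Fabp7, a fatty acid binding protein of immature Schwann cells, satellite glia and radial glia, spanned 7.21 log2 units, the widest of the members. Double transgenic tumours read 8.26, 9.38 and 9.57. The mutALK tumours read 10.99, 5.66 and 7.86. MYCN tumours read 4.87, 5.06, 4.53 and 5.51, and adrenal glands 6.99, 11.74 and 5.73. All double transgenic values lay above all MYCN values, and the lowest mutALK array stood just above the highest MYCN array. The mutALK and adrenal groups each held 1 array far above the others, so their SDs were 2.68 and 3.16, against 0.71 in double transgenic and 0.41 in MYCN tumours.

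With 1 spread shared by the 4 groups, no comparison called Fabp7. The difference between double transgenic and MYCN tumours was 4.08 ± 1.36 (95% interval 1.08 to 7.07, adjusted p = 0.0746). The same 4.08 had an adjusted p of 0.00201 when only those groups were fitted, 0.0155 without adrenal 2 and 0.0452 without mutALK 1, and without the 5 liver-high arrays it was 4.51 (0.00528). For mutALK against MYCN tumours it was 3.18 ± 1.36 (adjusted p = 0.106), which passed without adrenal 2 (3.18, 0.0251) or mutALK 2 (4.44, 0.0426) and was 1.77 (0.403) without mutALK 1. MYCN tumours differed from adrenal by -3.16 ± 1.36 (adjusted p = 0.0756) and, without adrenal 2, by -1.37 (0.353). Without the 5 liver-high arrays MYCN tumours differed from adrenal by -1.39 (adjusted p = 0.0293) and double transgenic tumours by 3.11 (0.00138). Double transgenic and mutALK tumours differed by 0.90 ± 1.46 (-2.30 to 4.10), and by 3.81 (adjusted p = 0.0142) without the 5 arrays with a liver mean above 8, which leaves 1 mutALK array, assumed to vary like the other groups. The Fabp7 gene lies on chromosome 10 at 57784923 to 57788450 (GRCm38.p6). The 250 bases before its RefSeq start, chr10:57784673-57784922 on the plus strand, are shown because this gene varied most; they hold 4 CG pairs, where the median of 32851 such windows is 6.

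Fabp7: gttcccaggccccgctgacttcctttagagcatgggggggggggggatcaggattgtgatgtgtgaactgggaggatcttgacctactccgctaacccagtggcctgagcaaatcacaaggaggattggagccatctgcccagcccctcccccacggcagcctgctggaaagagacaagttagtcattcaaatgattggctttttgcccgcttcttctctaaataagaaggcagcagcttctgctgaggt

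SOX-family factors such as Sox10 bind short sites that include the letters ACAAAG and ACAATG. Neither occurred in the Fabp7 window on either strand, and 25.2% of all windows of that length held at least 1. Such a match describes the letters only.

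S100b, a calcium-binding protein of Schwann cells that fat cells also express, was higher in adrenal 2 than in any other array. The gene lies on chromosome 10 at 76253836 to 76261319. It read 4.89, 5.08 and 5.30 in double transgenic tumours and 6.50, 6.48 and 5.04 in mutALK tumours. The values were 4.92, 4.88, 4.83 and 5.15 in MYCN tumours, against 5.42, 8.78 and 5.94 in adrenal. Double transgenic and MYCN tumours overlapped, while mutALK 1 and 2 stood above all other tumours. All double transgenic and MYCN values, and that of mutALK 3, lay within the olfactory receptor range (5th to 95th percentile 3.05 to 5.37). A difference between such low values may go unseen. The second probe set gave 4.10, 4.13 and 3.95 in double transgenic, 6.65, 5.44 and 4.38 in mutALK, 3.44 to 4.25 in MYCN and 4.72, 8.37 and 5.09 in adrenal, with the same arrays on top. Its double transgenic and MYCN values also lay in that range.

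S100b was lower in MYCN tumours than in adrenal, with a difference of -1.77 ± 0.65 (adjusted p = 0.0403), a call that 13 of 24 alternatives ended. Without adrenal 2 it was -0.73 (adjusted p = 0.117), and leaving out any 1 of the 3 double transgenic or 4 MYCN arrays gave -1.84 to -1.73 with adjusted p of 0.0507 to 0.0768. With the title number as a block it was -1.75 (0.062). Of 11 fat cell genes 10 were also lower in MYCN tumours than in adrenal, with a list mean of 6.49 to 9.07 against 10.25 to 12.14, and their part in the S100b difference was not tested. Between mutALK and MYCN tumours S100b differed by 1.07 ± 0.65 (95% interval -0.36 to 2.49, adjusted p = 0.265), which passed without adrenal 2 (1.07, 0.0216) and without the 5 liver-high arrays (1.52, 0.00685). Double transgenic minus mutALK was also called without those 5 arrays (-1.30, 0.0291). Double transgenic and MYCN tumours differed by 0.14 ± 0.65 (-1.28 to 1.57), at levels within the olfactory receptor range.

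Mbp, the myelin basic protein, gave opposite answers from different probe sets. The gene lies on chromosome 18 at 82475091 to 82585637 and also encodes golli proteins, longer products that neurons, oligodendrocytes and immune cells make from an upstream start. The brightest probe set (1425264_s_at) read 9.78, 9.49 and 9.03 in double transgenic and 6.72, 6.91 and 7.64 in mutALK tumours. It read 9.83, 9.31, 9.25 and 9.81 in MYCN tumours, and 8.01, 9.06 and 7.64 in adrenal. The mutALK arrays were below every other tumour array, and double transgenic and MYCN tumours overlapped.

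By this probe set, double transgenic tumours exceeded mutALK tumours by 2.34 ± 0.36 (adjusted p = 0.00344) and mutALK tumours differed from MYCN tumours by -2.46 ± 0.34 (adjusted p = 0.000316). Leaving out any 1 array kept both calls, at 2.16 to 2.62 and -2.73 to -2.27. Double transgenic and MYCN tumours differed by -0.11 ± 0.34 (95% interval -0.86 to 0.63). Against adrenal, the differences were 1.20 ± 0.36 in double transgenic (adjusted p = 0.0169), -1.15 ± 0.36 in mutALK (0.0238) and 1.31 ± 0.34 in MYCN tumours (0.00672). The first lost its call without double transgenic 1 (1.02, 0.0636), adrenal 1 (1.08, 0.0581) or adrenal 3 (0.90, 0.0727), and the second without mutALK 1 (-0.96, 0.086), mutALK 2 (-1.06, 0.0728) or adrenal 2 (-0.73, 0.0818) and without the 5 liver-high arrays (-0.92, 0.0719). A second probe set (1425263_a_at) followed it, with 7.72, 7.72 and 7.06 in double transgenic, 6.22, 6.25 and 6.61 in mutALK, 8.28 to 9.05 in MYCN tumours and 6.71, 7.52 and 6.95 in adrenal. For that probe set double transgenic tumours lay between the others, at 1.14 ± 0.26 from mutALK (adjusted p = 0.0163 over all probe sets, of which 14.1% were called) and at -1.09 ± 0.24 from MYCN tumours (0.014, background 13.3%). The first of these ended without double transgenic 2 (1.03, 0.068), mutALK 1 (1.07, 0.0558), mutALK 2 (1.08, 0.0619) or the 5 liver-high arrays (1.14, 0.0817), and the second without double transgenic 3 (-0.87, 0.0656).

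The other 6 Mbp probe sets were highest in adrenal 2, and 5 of them had mutALK 1 as their highest tumour. The exception (1451961_a_at) read 5.6 in mutALK 1, within the 5.19 to 5.70 of the other tumours. The brightest of them (1433532_a_at) read 5.88, 6.30 and 5.74 in double transgenic tumours and 8.35, 5.48 and 5.40 in mutALK tumours. In MYCN tumours it read 5.36, 4.89, 5.37 and 6.06, against 6.58, 10.41 and 6.39 in adrenal. None of the 6 was called in any of the 6 comparisons, which called 14.1%, 13.3% and 28% of all probe sets between tumours and 46.2%, 38.5% and 47.4% for double transgenic, mutALK and MYCN tumours against adrenal. Without adrenal 3, 5 of the 6 were called lower in MYCN tumours than in adrenal (-3.07 to -2.16, adjusted p = 0.0279 to 0.0464), opposite in sign to the brightest probe set of the gene. Without the 5 liver-high arrays 3 of them were, 1433532_a_at (-0.89, 0.0307), 1419646_a_at (-0.65, 0.0136) and 1436201_x_at (-0.65, 0.0121). For 1433532_a_at the difference was -2.37 ± 0.93 (adjusted p = 0.0538) over all arrays, and it also passed after a repeated quantile normalization (0.0489), median centring (0.0494) and array weights (0.0366). Which transcripts each reads is not given in the sources used here. By Affymetrix naming, probe sets ending in _a_at read several transcripts of a gene. Those in _s_at, as the brightest Mbp probe set is, share probes between transcripts that may be of different genes. Those in _x_at hold probes that may cross-hybridise. Averaging all 8 probe sets left 0.22 between double transgenic and mutALK tumours (adjusted p = 0.87) and -0.14 between mutALK and MYCN tumours (0.896).

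**Figure D3:**
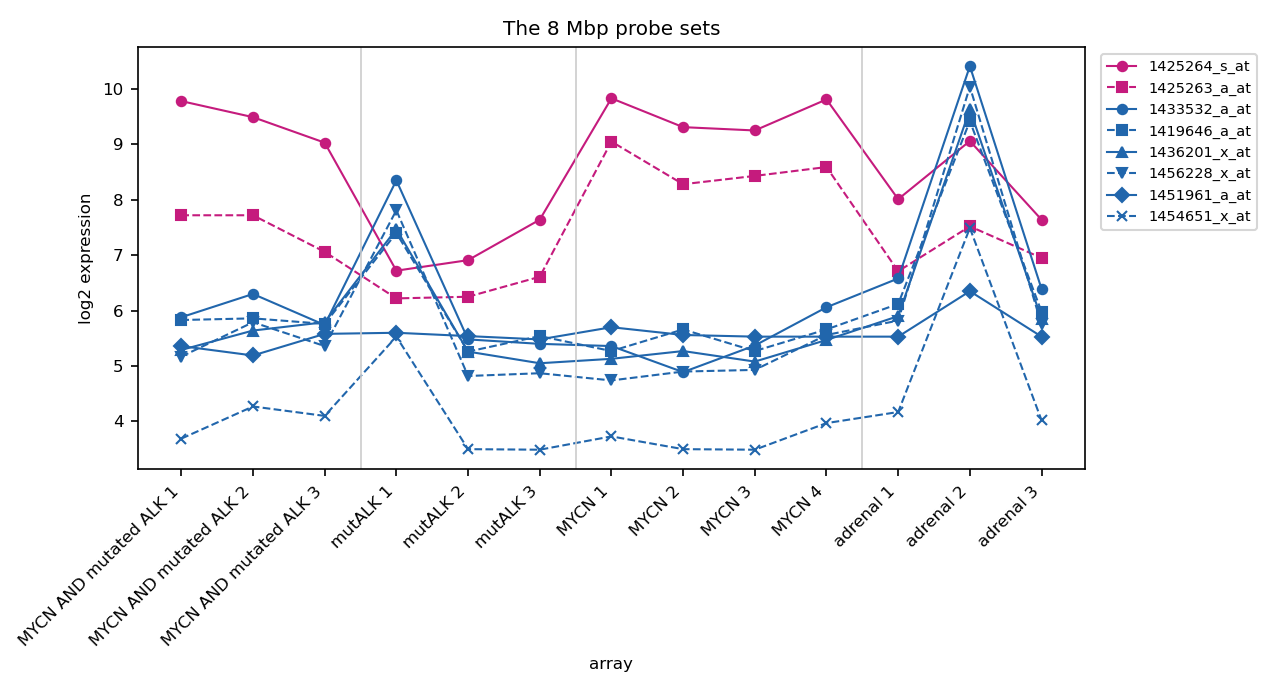
Log2 expression (vertical axis) of the 8 Mbp probe sets in each of the 13 arrays (horizontal axis); a line joins the values of 1 probe set and has no meaning between arrays. The 2 probe sets in magenta are low in the 3 mutALK arrays, and the 6 in blue are highest in adrenal 2, with 5 of them next highest in mutALK 1.

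Pmp22, a membrane protein of compact myelin that fibroblasts and endothelia also express, was lowest in double transgenic tumours. The gene lies on chromosome 11 at 63128982 to 63159547. It read 8.94, 8.91 and 9.43 there and 10.79, 10.71 and 10.06 in mutALK tumours. MYCN tumours read 9.02, 9.83, 10.51 and 10.27, and adrenal glands 11.07, 11.42 and 11.07. The double transgenic arrays did not overlap with mutALK or adrenal arrays but did overlap with MYCN 1, and every tumour lay below every adrenal gland.

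The difference was -1.43 ± 0.34 between double transgenic and mutALK tumours (adjusted p = 0.0193). That call ended without double transgenic 1 (-1.35, adjusted p = 0.0553), double transgenic 2 (-1.34, 0.075), mutALK 1 (-1.29, 0.0666) or mutALK 2 (-1.33, 0.0721), and without the 5 arrays with a liver mean above 8 (-1.54, 0.144). Against adrenal it was -2.09 ± 0.34 in double transgenic tumours (adjusted p = 0.000307), which all 25 alternatives kept, -1.28 ± 0.32 in MYCN tumours (0.00511, or -1.14 and 0.0696 without those 5 arrays) and -0.67 ± 0.34 in mutALK tumours (0.144). Between double transgenic and MYCN tumours it was -0.82 ± 0.32 (adjusted p = 0.121), and -1.11 (0.0151) without MYCN 1. Markers of stroma moved with it. The mean of 11 fibroblast and matrix genes was 6.73 to 7.83 in double transgenic tumours, 8.12 to 9.28 in mutALK, 8.09 to 8.87 in MYCN and 8.69 to 9.79 in adrenal, and that of 12 endothelial genes 5.54 to 6.18, 6.74 to 7.35, 6.57 to 7.82 and 8.99 to 9.10. In double transgenic against mutALK tumours 6 of the fibroblast genes were lower and 1 higher, and 8 of the endothelial genes were lower. Their part in the Pmp22 result was not tested.

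Cnp, an enzyme of the myelin membrane that is also found outside glia, was lowest in MYCN tumours by its brightest probe set. It read 10.00, 9.78 and 10.11 in double transgenic and 11.28, 10.86 and 10.18 in mutALK tumours. MYCN tumours read 9.48, 9.54, 9.16 and 9.64, and adrenal glands 10.57, 11.23 and 10.70. The MYCN arrays did not overlap with any other group, and the mutALK arrays overlapped with adrenal but not with double transgenic tumours.

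The mutALK tumours exceeded MYCN tumours in Cnp by 1.32 ± 0.24 (adjusted p = 0.00172), and all 25 alternatives kept this call, with differences of 0.96 to 1.62. The other 2 Cnp probe sets were also called, at 0.93 ± 0.24 (adjusted p = 0.0117 over all probe sets, background 28%) and 0.63 ± 0.17 (0.0142), and each lost its call without mutALK 1 (0.68, 0.0555, and 0.48, 0.0696), the second also without the 5 liver-high arrays (0.66, 0.0822). Between double transgenic and mutALK tumours the difference was -0.81 ± 0.26 (adjusted p = 0.0583), which passed without mutALK 3 (-1.10, 0.00923) or adrenal 2 (-0.81, 0.0371). Double transgenic and MYCN tumours differed by 0.51 ± 0.24 (95% interval -0.02 to 1.04, adjusted p = 0.203). Both MYCN and double transgenic tumours were lower than adrenal. The difference was -1.38 ± 0.24 in MYCN tumours (adjusted p = 0.000487), which all 25 alternatives kept, and in double transgenic tumours -0.87 ± 0.26 (0.0152), which did not pass without double transgenic 2 (-0.78, 0.0572) or adrenal 2 (-0.67, 0.0596). The mutALK tumours differed from adrenal by -0.06 ± 0.26 (-0.63 to 0.51). The Cnp gene lies on chromosome 11 at 100574909 to 100591875. The 250 bases before its listed RefSeq promoter start, chr11:100574689-100574938 on the plus strand of GRCm38.p6, are shown because Cnp gave the call between tumours that held under every alternative; they hold 13 CG pairs and 1 ACAAAG, in capitals, beginning at position -167 from that start.

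Cnp: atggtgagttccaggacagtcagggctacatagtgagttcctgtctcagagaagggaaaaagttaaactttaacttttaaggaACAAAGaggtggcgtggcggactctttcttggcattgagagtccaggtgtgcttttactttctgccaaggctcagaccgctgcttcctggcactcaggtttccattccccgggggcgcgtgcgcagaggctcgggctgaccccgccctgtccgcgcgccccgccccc

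RefSeq promoter windows were read for 5 of the 7 members. Windows on chromosome 18, where Mbp lies, were left out of the search of members, and no window was matched to Erbb3. The Cnp window was the only one of theirs with either of the 2 SOX-type letter strings, which 8292 of the 32851 windows held.

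Gfap, on chromosome 11 at 102887336 to 102897200, spanned the least, with 4.74 to 5.41 over all 13 arrays by its brightest probe set. It averaged 5.20 ± 0.12 in double transgenic, 5.32 ± 0.10 in mutALK and 5.22 ± 0.06 in MYCN tumours, and 4.93 ± 0.17 in adrenal (SD, n = 3, 3, 4 and 3). The mutALK and MYCN tumours were called higher than adrenal by 0.39 ± 0.11 (adjusted p = 0.0153) and 0.29 ± 0.10 (0.0381). Neither group overlapped with adrenal, but 12 of the 13 values lie within the olfactory receptor range given above and mutALK 2 lies just over it. The first call ended without mutALK 2 (0.34, 0.0562) and without the 5 liver-high arrays (0.38, 0.111). The second ended without those 5 arrays (0.17, 0.305), with the title number as a block (0.29, 0.0562), and without MYCN 1 (0.28, 0.0712), MYCN 2 (0.26, 0.091), MYCN 4 (0.29, 0.0662), adrenal 2 (0.19, 0.15) or adrenal 3 (0.32, 0.0537). Its other 2 probe sets read 3.0 to 4.69 and were called in no comparison over all arrays, but without the 5 liver-high arrays 1440142_s_at was lower in MYCN tumours than in adrenal (-0.86, 0.0228), opposite in sign to the brightest probe set. The tumour comparisons gave -0.11, -0.02 and 0.10, with none called.

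The same 2 arrays led most of these readings. Adrenal 2 had the highest value of 13 arrays in 11 of the 20 member probe sets and in 3 of the 7 members, where it was highest for 13.6% of all probe sets and 15.6% of all genes. Among the 10 tumour arrays mutALK 1 was highest in 15 of 20 member probe sets and 5 of 7 members, where it was highest for 12.5% of probe sets and 13.2% of genes. Of the 20 probe sets 8 read Mbp, and probe sets of 1 gene on 1 array are repeat readings, not separate evidence. Both arrays also had a liver mean above 8. So did double transgenic 1 (11.56, the highest), mutALK 3 (9.40) and MYCN 2 (8.48). Each of those arrays was highest in 0 of 20 member probe sets, over all 13 arrays and over the 10 tumour arrays. Within their tissues, adrenal 2 (9.82) and mutALK 1 (11.91) topped the pan-neuronal list too. The part of liver or neuronal RNA in the member readings was not tested. Adrenal 2 and mutALK 1 also had a high mean of the other Schwann lineage genes. That mean was 7.63 in adrenal 2, against 6.48 and 6.24 in the other adrenal arrays, and 7.52 in mutALK 1, against 7.07 and 6.78 in the other mutALK arrays.

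Other Schwann lineage genes gave a wider view, with 36 of 40 listed genes analysed here. In mutALK against MYCN tumours 10 were higher, 1 lower and 25 not called, and the median difference was 0.57. The share called in either direction was near the 30.8% of all genes, of which 13.6% were higher and 17.2% lower. Apod, a lipid carrier of nerve fibroblasts and glia, was higher by 6.52 ± 0.73 (adjusted p = 9.94e-05), Cdh19, a cadherin of Schwann cell precursors, by 4.0 ± 0.75 (0.00193), and Scn7a, a sodium channel of Schwann cells and sensory tissue, by 3.98 ± 0.69 (0.00125). Cdh19 read 8.89, 7.56 and 5.54 in mutALK tumours, against 3.22, 3.16, 3.02 and 3.90 in MYCN tumours, without overlap. Among neural crest and glial transcription factors, Sox10 was higher by 1.10 ± 0.38 (adjusted p = 0.0461) and Foxd3 by 1.37 ± 0.38 (0.0179). The Sox10 call ended whenever a double transgenic or MYCN array or mutALK 1 or 2 was left out (0.81 to 1.13, adjusted p = 0.0554 to 0.189). It also ended with the title number as a block (1.19, 0.0689) and after a repeated quantile normalization (1.1, 0.0522). Averaging all Sox10 probe sets left 0.42 (adjusted p = 0.133). The Foxd3 call ended without mutALK 1 (1.08, 0.0842) or mutALK 2 (1.29, 0.0661). Leaving out adrenal 2 gave 14 higher and 3 lower genes in the list. All genes called numbered 5603 over all arrays and ran from 4264 to 6540 with 1 array left out.

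In double transgenic against MYCN tumours 3 of the 36 were higher, 0 lower and 33 not called, with a median of 0.28, where 12.8% of all genes were called. They were Apod (4.20 ± 0.73, adjusted p = 0.00509), Cdh19 (2.83 ± 0.75, 0.0297) and Scn7a (2.40 ± 0.69, 0.0424). With the title number as a block Cdh19 (2.78, 0.0559) and Scn7a (2.31, 0.0825) lost their calls, which left 1, as did averaging the arrays that share it (2.75, 0.058, and 2.24, 0.0873). Leaving out double transgenic 1, 2 or 3 or MYCN 1, 2 or 3 also left 1 call. Leaving out adrenal 2 gave 5 higher and 1 lower, and fitting the compared groups alone gave 13 higher. All genes called numbered 2333 over all arrays. They ran from 1226 to 3369 with 1 array left out and from 1394 to 3850 in the other alternatives. Sox10 read 7.08, 6.97 and 7.50 in double transgenic tumours, against 6.36, 6.64, 6.64 and 6.64 in MYCN tumours, and differed by 0.62 ± 0.38 (adjusted p = 0.341). These values do not overlap, although the difference did not pass over all arrays. In the compared groups alone it passed (0.62 ± 0.15, adjusted p = 0.0309). Between double transgenic and mutALK tumours, where 14.4% of all genes were called, 0 of 36 were higher and 2 lower, Egr2 (-1.17 ± 0.25, adjusted p = 0.0119), which drives the myelin programme, and its cofactor Nab1 (-0.77 ± 0.15, 0.00909). The Egr2 call ended without double transgenic 2 (-1.01, 0.0557). The Nab1 call ended when all its probe sets were averaged (-0.42, 0.0997), and its difference was -0.87 without the 5 liver-high arrays. Leaving out mutALK 3 or adrenal 2 gave 4 calls in the list. All genes called numbered 2624 over all arrays and ran from 1006 to 3659 with 1 array left out.

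Against adrenal, 5 of the 36 were higher and 10 lower in double transgenic tumours, 6 higher and 7 lower in mutALK tumours, and 4 higher and 13 lower in MYCN tumours, with medians of -0.27, 0.11 and -0.70. Of all genes 48.6%, 42.2% and 50.2% were called in these comparisons. The higher ones included molecules that neurons make too. Ugt8a, which makes the galactolipid of myelin, was higher by 5.37 ± 0.47, 4.03 ± 0.47 and 4.75 ± 0.44 in double transgenic, mutALK and MYCN tumours (adjusted p = 3.7e-06, 4.82e-05 and 4.07e-06). The adhesion molecules Ncam1 (3.43, 3.34 and 2.46) and Cadm4 (3.06, 2.69 and 3.23) were also higher in all 3, and Apod was higher in mutALK tumours (4.07 ± 0.78, adjusted p = 0.0014). The pan-neuronal list was higher for 14, 13 and 12 of its 15 genes in these comparisons, and its part was not tested. Called lower in all 3 tumour groups were Fa2h, which hydroxylates myelin lipids (-2.52, -2.52 and -2.58), and Mal (-1.83, -1.63 and -1.93). So were Dhh, Mag, Itgb8 and Nab1. The lower ones in MYCN tumours also included Scn7a (-3.70 ± 0.69, adjusted p = 0.00076) and Cdh19 (-3.65 ± 0.75, 0.00146). Ngfr, the low-affinity neurotrophin receptor of Schwann cells, read 12.19 in adrenal 2, against 7.0 and 6.58 in adrenal 1 and 3, and 6.24 to 9.29 in tumours. It was called in no comparison over all arrays. Its difference between mutALK and MYCN tumours was 1.60 ± 1.09 (adjusted p = 0.322), and the same 1.60 passed without adrenal 2 (0.0135), without adrenal 2 and double transgenic 1 (0.018) and in the compared groups alone (0.0415). In the compared groups alone double transgenic minus MYCN also passed (0.57, 0.0447), and MYCN minus adrenal passed without adrenal 3 (-3.15, 0.0368).

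**Figure D4:**
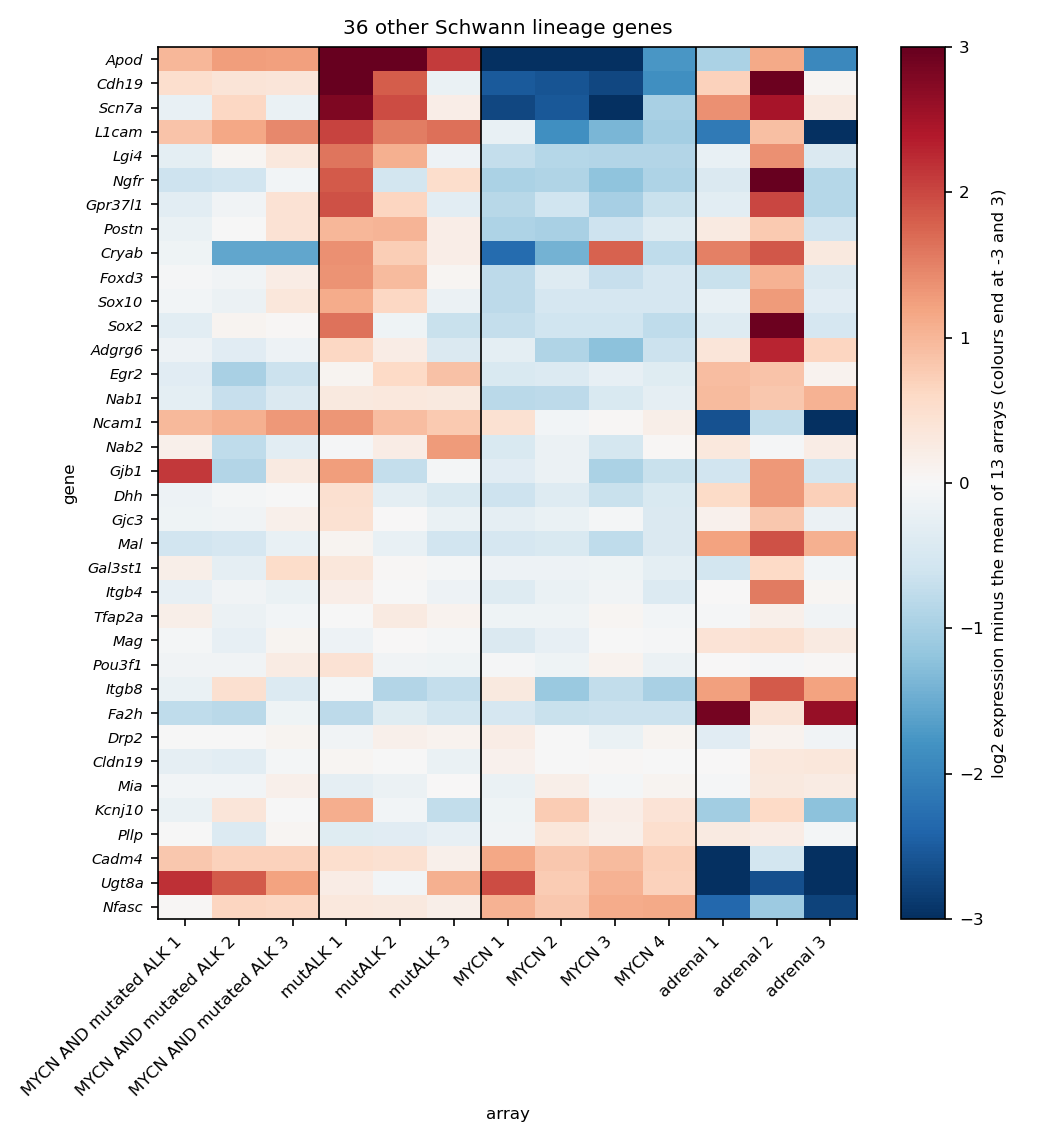
Log2 expression of 36 other Schwann lineage genes (rows) minus each gene's mean over the 13 arrays (columns), with colours ending at -3 and 3. Apod, Cdh19 and Scn7a are low in the MYCN arrays, and adrenal 2 and mutALK 1 are high for many of the genes.

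Genes with the most similar profile were sought for the 6 members that spanned over 2 log2 units. The measure was the root mean square difference over the 13 arrays after each gene's mean was subtracted, and the members' own root mean squares were 0.66 to 2.34. Erbb3 was closest to Sema3b, a secreted semaphorin (0.42), Plekhb1 (0.45) and Parva, an actin-linked adhesion protein (0.48). S100b was closest to the orexin receptor Hcrtr1 (0.40), the potassium channel Kcna1 (0.42) and Adgrg6, a receptor needed for Schwann cell myelination (0.44). Fabp7 was closest to Sostdc1 (1.19), Sncg (1.38) and Cdh19 (1.40), and Pmp22 to Myadm (0.32), Naalad2 (0.32) and the basement membrane protein Nid1 (0.33). Cnp was closest to the lysosomal enzyme Smpd1 (0.18), Atp1b2 (0.20) and Tmem9b (0.21).

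Some of these ranks rested on adrenal 2. Hcrtr1 read 8.75 in adrenal 2 and 3.51 to 5.34 in the other 12 arrays, and without adrenal 2 Hcrtr1 still ranked 3rd in likeness to S100b (0.26), while Adgrg6 ranked 125th and Kcna1 306th. For Fabp7, Sostdc1 then ranked 2nd, Cdh19 25th and Sncg 34th. The brightest Mbp probe set was closest to the neuronal calcium channel Cacna1a (0.34), the potassium channel Kcnk1 (0.51) and Peli2 (0.51). Cacna1a read 6.67, 6.94 and 6.51 in double transgenic, 4.45, 4.90 and 4.53 in mutALK and 6.44 to 6.87 in MYCN tumours, and 5.18, 5.88 and 4.73 in adrenal. Without adrenal 2 it remained the closest gene, at 0.33, while Kcnk1 ranked 5th and Peli2 26th. The genes named for Erbb3, Pmp22 and Cnp ranked 2nd to 6th without that array.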

How the data were processed

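The authors' deposited table holds log2 expression values of 45101 probe sets in 13 arrays, made with RMA and Partek per the submitters' processing notes, which give no versions; RMA corrects background, quantile-normalises and summarises probes, so groups with truly shifted totals are pulled together. Values ran from 2.04 to 14.46, array medians from 5.80 to 5.90, and arrays of a group correlated at 0.938 to 0.991 across genes, which are not replicates. The number of arrays limits the precision. Control probe sets (64) and those with several symbols (932) or none (9211) were left out. The other 34945 gave 18193 genes, each by its brightest probe set on average. RefSeq (GRCm38.p6) matched 34754 of 34958 single-symbol probe sets. limma 3.58.1 in R 4.3.3 (lmFit, eBayes, 9 residual and 2.28 prior degrees of freedom) fitted 1 mean per group to all 13 arrays; the Benjamini-Hochberg adjustment of the 6 two-sided contrasts covered all genes, and the fit was tested on simulated data. Replicate numbers follow accession order and pair nothing. The members, lists and tests were chosen with earlier results of these data known. All members are named. Of other lists, up to 3 called genes per comparison by size and the defining markers are named. Schwann lineage genes called lower than adrenal in all 3 tumour groups are named too. For likeness, 3 genes per member are named. A further 25 alternatives were run.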

Additional observations from a re-analysis of the deposited data

Results flagged for a closer look

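None of the 20 member probe sets had an array far from the rest of the MYCN group, the only group large enough (4 arrays) to be screened. Of 73 probe sets of members and listed genes, 5 did, and chance marks about 1 in 20. Sox10 was 6.36 in MYCN 1 against 6.64 in each of the other 3 MYCN arrays. Ngfr was 6.24 in MYCN 3 against 6.49 to 6.54, Gal3st1, an enzyme of sulfatide synthesis, was 5.09 in MYCN 4 against 5.23 to 5.26, and Fa2h, which hydroxylates myelin lipids, was 5.89 in MYCN 1 against 5.72 to 5.74. Nrg4 was 5.96 in MYCN 4 against 4.5 to 4.65, the widest of these gaps.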

How the results depend on the processing

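Of 1038 alternative values for the 42 member differences, 939 kept their side of the threshold, 57 lost a call, 39 gained one and 3 reversed. A value counted as reversed when its sign changed and the difference passed in the main fit or in the alternative. Sign changes of differences that passed in neither are among the 939, such as Erbb3 in double transgenic minus mutALK tumours (-0.30, and 0.30 without mutALK 1). The 3 reversals came from averaging all probe sets of a gene, which gave Mbp -0.81 in double transgenic and -0.89 in MYCN tumours against adrenal, and Gfap -0.19 in MYCN tumours against adrenal. That average mixes the 2 groups of Mbp probe sets. Members called, leaving out 1 array at a time, ran from 1 to 3 (double transgenic minus mutALK), 0 to 2 (double transgenic minus MYCN), 2 to 5 (mutALK minus MYCN), 2 to 4, 0 to 3 and 3 to 7 (double transgenic, mutALK and MYCN minus adrenal). All genes called ran from 1006 to 3659, 1226 to 3369, 4264 to 6540, 7793 to 8806, 6880 to 7791 and 8379 to 9141 in that order. Averaging probe sets called 1 member for double transgenic minus mutALK and 0 for mutALK minus adrenal. Fitting the compared groups alone called 3 members for double transgenic minus MYCN, 0 for mutALK minus adrenal and 1162 genes for double transgenic minus mutALK. For double transgenic minus MYCN, leaving out the dimmest 40% of genes called 1 member and array weights called 3, with 3850 genes. For mutALK minus adrenal, the dim filter and averaging arrays that share a title number each called 1 member. That averaging called 1624 genes for double transgenic minus mutALK and 1394 for double transgenic minus MYCN, and the title number as a random block called 1582 for double transgenic minus mutALK. Leaving out the 5 arrays with a liver mean above 8 called 2 members for double transgenic minus MYCN and 0 for mutALK minus adrenal. Leaving out adrenal 2 and double transgenic 1 called 2, 5, 0 and 3 members for double transgenic minus MYCN, mutALK minus MYCN, mutALK minus adrenal and MYCN minus adrenal. The totals of all genes called also moved between fits. The cause of these moves was not tested. Alternatives for single probe sets (2280 values, of which 2129 kept) and for named genes of other lists (1544, of which 1449 kept) were chosen after seeing the data; 1 of these reversed, Nrg1 in MYCN tumours against adrenal, 0.57 without the 5 liver-high arrays. No paired analysis was possible because the replicate numbers follow accession order. Signal over background was not measured, so low values have no detection call. Such values include those of Gfap, of S100b in most tumours, and of Fabp7, Nrg1 and Cdh19 in MYCN tumours.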
